A study of Drosophila melanogaster with 18 samples.

Results

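The dynein heavy chain genes of the axoneme that do not lie on the Y chromosome were followed in total RNA of adult *Drosophila melanogaster* testes. The 6 genes are *Dhc36C*, *Dhc98D*, *Dhc16F*, *Dhc62B*, *CG3339* and *Dhc93AB*. They were taken by name, with no threshold on a measured value, from 17575 genes in the files, and all 6 had enough counts to be among the 14059 genes tested. Control males were heterozygous, mod07570/+, and the *modulo* mutant males were transheterozygous, modL8/mod07570, so both genotypes carried the mod07570 allele and the control kept a wild-type copy. Testes came from males 1 to 3 days old reared at 25 °C, with 3 replicates of each genotype, and each replicate was sequenced on 3 lanes. The sample titles call the control "wt", and how many males went into a sample is not given in the sources used here.

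Axonemal dyneins are the motors of the sperm tail. Each arm is built around heavy chains, very large ATPases that walk along the neighbouring microtubule doublet and bend the tail, and intermediate and light chains hold the arm together. Outer arms set most of the beat frequency and inner arms the waveform. In *Drosophila* several heavy chains of the sperm are encoded by fertility genes on the Y chromosome (*kl-2*, *kl-3* and *kl-5*), which are transcribed in spermatocytes. Motile cilia outside the testis are confined to chordotonal sensory neurons. By homology with other animals, *Dhc36C*, *Dhc62B* and *Dhc16F* encode single-headed inner arm chains, *Dhc98D* and *CG3339* chains of the double-headed inner arm, and *Dhc93AB* an outer arm chain of the same class as *kl-5*. Modulo is a nucleolar protein related to Nucleolin, and the study used these libraries in asking how its loss leads to sperm nuclei that fail to compact.

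The 6 genes are spread over 4 chromosome arms (release 6 assembly, BDGP6/dm6). *Dhc16F* (FBgn0283476) lies on X from 18064483 to 18078472 on the plus strand, *Dhc36C* (FBgn0013810) on 2L from 17501401 to 17525515 on the plus strand, and *Dhc62B* (FBgn0013811) on 3L from 1759172 to 1771758 on the minus strand. The other 3 are on 3R. *Dhc93AB* (FBgn0013812) runs from 21024580 to 21042499 on the minus strand, *CG3339* (FBgn0039510) from 27294286 to 27322325 on the minus strand and *Dhc98D* (FBgn0013813) from 28486953 to 28519398 on the plus strand. *mod* itself lies on 3R. The genotypes therefore also differ in the homologue of the third chromosome that carries modL8 in the mutant and the wild-type allele in the control, and for the 4 genes on that chromosome (3L and 3R) an effect of the homologue cannot be told apart from an effect of *modulo*. All 6 are long messages. Their exons add up to between 12090 bases in *Dhc62B* and 15919 in *Dhc98D*, longer than 98.9% of the tested genes with a length. Their introns are short, the longest being 4219 bases in *CG3339*, while the longest intron is 120259 bases in *kl-3*.

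The libraries were deep, with total counts from 87119206 to 107435749. *mod* (FBgn0002780) checked the labels, at 1959 to 2105 normalized counts in control and 121 to 195 in the mutant. A normalized count is the read count divided by the library size after TMM scaling and multiplied by the geometric mean of those sizes. Transcripts of spermatocytes and spermatids were abundant. The summed level of the 5 genes of meiotic entry and division ran from 3137 to 3760 CPM (counts per 1000000 after TMM scaling) in control and from 2439 to 3997 in the mutant, and that of the 11 post-meiotic spermatid genes from 5053 to 5199 and from 4260 to 5191. The 6 genes of chordotonal neurons summed to only 3.60 to 3.95 CPM in control and 3.81 to 4.51 in the mutant. Accessory gland RNA varied between samples, from 44.1 to 392 CPM in control and from 105 to 252 in the mutant. In bulk tissue, fewer cells of a type and less RNA per cell cannot be told apart.

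The heavy chains fell into abundant and scarce ones. Levels of different genes were compared as CPM per kb of exon. In control testes the mean level was 31.0 ± 6.42 (SD, n = 3) for *Dhc36C*, 20.3 ± 5.89 for *Dhc98D*, 17.6 ± 2.63 for *Dhc16F* and 12.2 ± 2.88 for *Dhc62B*. It was 0.319 ± 0.0185 for *CG3339* and 0.0195 ± 0.00101 for *Dhc93AB*. The 4 abundant chains made up 99.5% to 99.8% of the reads on the 6 genes in the 6 samples. The step from *Dhc62B* down to *CG3339* was 38.4-fold in control and 83.6-fold in the mutant, and that from *CG3339* to *Dhc93AB* 16.3-fold and 9.09-fold. Among the abundant chains the differences were small. *Dhc36C* was 1.53-fold above *Dhc98D* in control, *Dhc98D* 1.15-fold above *Dhc16F* and *Dhc16F* 1.43-fold above *Dhc62B*, and in control the ranges overlapped between the first pair and between the second. Even so the order of the 6 levels was the same in 6 of 6 samples, mutant ones included. Among the tested genes with a length, *Dhc36C* stood at the 77.1 percentile of level and *CG3339* at 10.6, while 0.185% of them were at or below *Dhc93AB*.

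**Figure D1:**
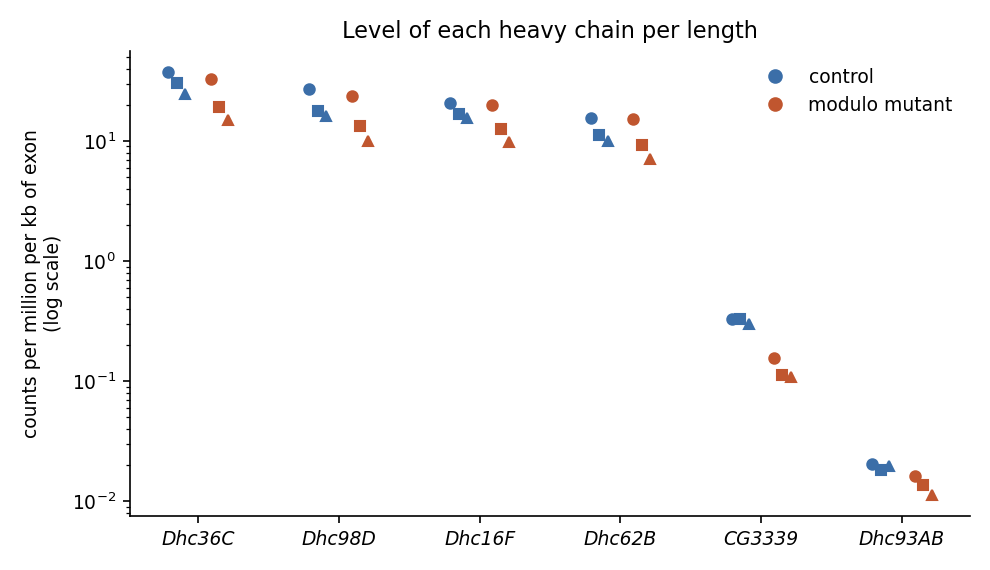
Level of each of the 6 dynein heavy chain genes in CPM per kb of exon (log axis), with 1 point for each of the 3 control (blue) and 3 *modulo* mutant (red) samples (circle, replicate 1; square, replicate 2; triangle, replicate 3). *Dhc36C*, *Dhc98D*, *Dhc16F* and *Dhc62B* lie together, *CG3339* lies 38.4-fold below *Dhc62B* in control, and *Dhc93AB* lies lowest.

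Of the 6 heavy chains, *CG3339* was the only one that passed the test between the genotypes without a block (edgeR, quasi-likelihood F-test, Benjamini-Hochberg adjusted p below 0.05 over all tested genes), and it fell. Over all 14059 genes 32.3% passed, 17.8% lower and 14.5% higher in the mutant, so 1 of 6 is not above that background. The fitted log2 fold change was below 0 for all 6, with a median of -0.43 against 0.02 over all tested genes. The median was -0.15 over 261 genes with at least 10 kb of exon and a mean of at least 100 normalized counts. In each of the 3 pairs of same-numbered replicates the mutant was below the control for all 6 genes, a pattern that 33.4% of all tested genes showed. Pairing of the samples by replicate number was inferred from these data and is not given by the labels. With the number as a block 4 of the 6 passed, all lower (*CG3339*, *Dhc36C*, *Dhc98D* and *Dhc16F*). In that fit 45.6% of all genes passed, 23.4% lower and 22.2% higher. Of the 3 genes on 3R 1 was called lower without the block, where 20.9% of all tested genes on that arm were.

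**Figure D2:**
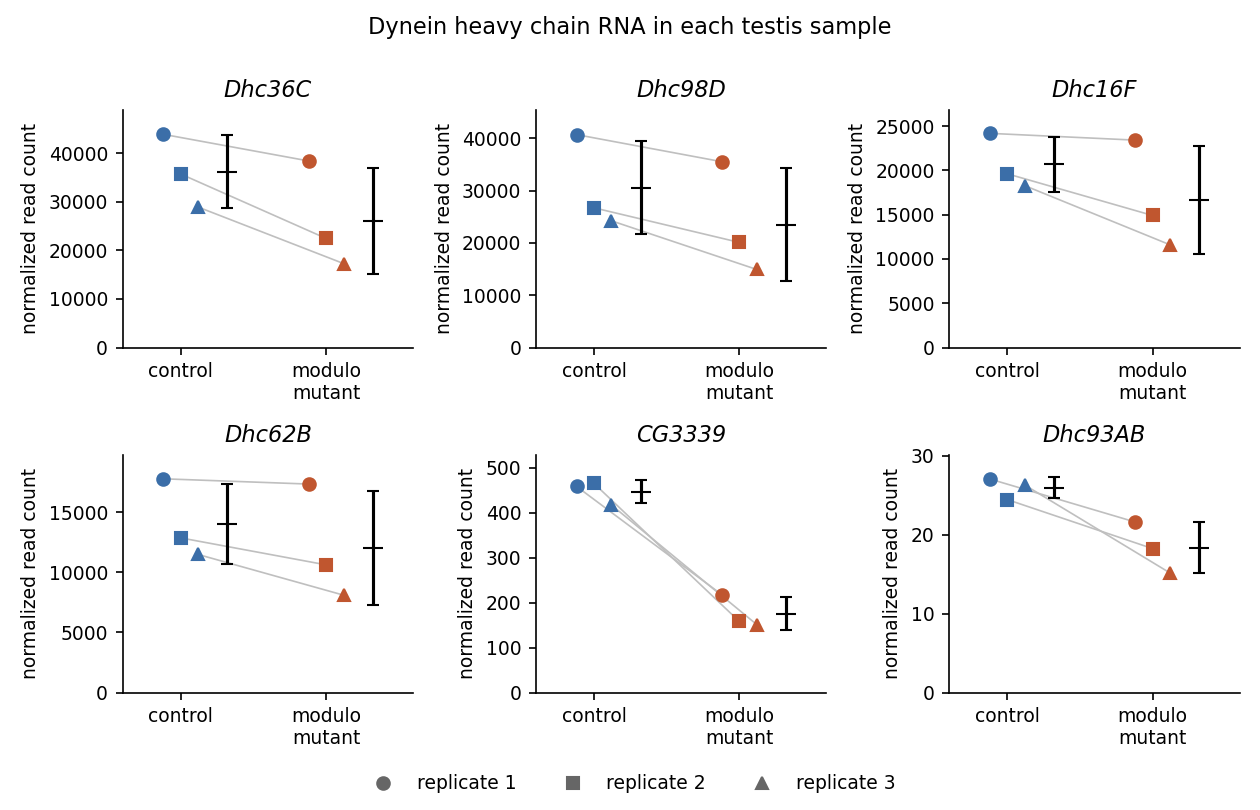
Normalized counts of each of the 6 genes in the 3 control and 3 *modulo* mutant samples (points, with the symbol giving the replicate number and grey lines joining equal numbers; black ticks and bars, mean ± SD), each panel with its own axis from 0. The genotypes do not overlap for *CG3339* and *Dhc93AB* and overlap for the 4 abundant chains, where replicate 1 is the highest sample of both genotypes.

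*CG3339*, an inner arm chain by homology, fell 2.54-fold. Its counts were 458, 457 and 397 in control replicates 1, 2 and 3 and 242, 165 and 140 in mutant replicates 1, 2 and 3, which normalized to 459, 465 and 417 against 218, 158 and 151. Every mutant sample was below every control sample. *CG3339* and *Dhc93AB* were the 2 of the 6 genes with the mutant range wholly below the control range, as 24.1% of all tested genes had. The mean was 447 ± 26.0 normalized counts (SD, n = 3) in control against 176 ± 36.4 in mutant testes, a log2 fold change of -1.34 (SE 0.16, adjusted p = 0.00106 by edgeR) and of -1.36 with the replicate block (SE 0.13, adjusted p = 0.000154). The median of the other 5 genes was *Dhc16F* in every sample. Relative to *Dhc16F*, on the log2 scale, *CG3339* stood at -5.72, -5.40 and -5.45 in the control replicates. In the mutant replicates *CG3339* stood at -6.75, -6.56 and -6.26, so it fell by 1.00 on the log2 scale against that 1 gene. *CG3339* shares 762 exon bases, 5.15% of its exon sequence, with the antisense RNA *asRNA:CR44287* on the other strand, singled out after its values were seen. That RNA, *asRNA:CR44287*, fell too, from 680, 690 and 601 counts to 309, 331 and 274 (log2 fold change -1.18, adjusted p = 0.000215 by edgeR). The counting used strand, and how far reads of either gene enter the counts of the other was not tested.

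*Dhc36C*, an inner arm chain and the most abundant of the 6, had normalized counts of 43881, 35705 and 28900 in control and 38397, 22456 and 17288 in the mutant. Mutant replicate 1 lay above control replicates 2 and 3, so the genotypes overlapped. The log2 fold change was -0.47 (SE 0.30, adjusted p = 0.274 by edgeR), and with the replicate block -0.53 (SE 0.12, adjusted p = 0.00841). *Dhc98D*, of the double-headed arm, was at 40731, 26724 and 24240 in control and 35547, 20107 and 14930 in the mutant. Replicate 1 was again far above replicates 2 and 3 in both genotypes. Its log2 fold change was -0.38 (SE 0.34, adjusted p = 0.439 by edgeR), and with the replicate block -0.44 (SE 0.11, adjusted p = 0.0132).

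*Dhc16F*, the X-linked single-headed chain, had 24191, 19623 and 18287 normalized counts in control and 23427, 14914 and 11603 in the mutant. The samples numbered 1 were nearly equal, and the gap was widest between those numbered 3. The log2 fold change was -0.31 (SE 0.25, adjusted p = 0.389 by edgeR), and with the replicate block -0.37 (SE 0.12, adjusted p = 0.0361). *Dhc62B*, also single-headed, had 17760, 12852 and 11474 in control and 17323, 10614 and 8099 in the mutant. It passed the test neither without nor with the block, with a log2 fold change of -0.22 (SE 0.29, adjusted p = 0.600 by edgeR) and of -0.27 with the block (SE 0.10, adjusted p = 0.0571). Its value without the block ranged from -0.58 without mutant replicate 1 to -0.01 without mutant replicate 3 when single samples were left out.

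*Dhc93AB*, the outer arm chain known from chordotonal neurons, was barely present. Its counts were 27, 24 and 25 in control and 24, 19 and 14 in the mutant, in libraries of at least 87119206 counts. The exact Poisson 95% intervals, which cover counting error only, ran from 15.4 to 35.7 for control replicate 2 and from 7.65 to 23.5 for mutant replicate 3, and the intervals of all 6 samples overlap. The log2 fold change of -0.49 (SE 0.22, adjusted p = 0.137 by edgeR; -0.50 and 0.159 with the block) was not detectable as a difference at this depth.

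The abundant chains differed by more between replicates of a genotype than between the genotype means. In control the highest replicate was 1.32 to 1.68 times the lowest for the 4 abundant genes, and in the mutant 2.02 to 2.38 times. Replicate 1 was the highest sample of its genotype for all 6 genes, except for *CG3339* in control. Long messages as a class had a like pattern. Over 261 genes with at least 10 kb of exon and a mean of at least 100 normalized counts, the median deviation from each gene's own mean was 0.29, -0.03 and 0.02 in control replicates 1, 2 and 3 and 0.20, -0.17 and -0.34 in the mutant ones on the log2 scale. The 2732 genes with under 1 kb of exon and the same minimum mean had the opposite sign in every sample. Their medians were -0.18, 0.04 and -0.02 in control and -0.11, 0.10 and 0.18 in the mutant. In control replicates 2 and 3 the medians of both classes were near 0. Among the 274 tested genes with at least 10 kb of exon, 17.2% were called lower without the block and 33.2% with it. The part of exon length in the values of the heavy chains was tried as an alternative chosen after seeing the data. With the trend over exon length removed in the fit that has the block, *CG3339* (log2 fold change -1.13, adjusted p = 0.000335) and *Dhc36C* (-0.32, adjusted p = 0.0275) still passed, and *Dhc16F* (-0.15, adjusted p = 0.171) and *Dhc98D* (-0.19, adjusted p = 0.0674) no longer did, by edgeR, where 23.9% of all genes were called lower. Without mutant replicate 1 and without the block, *Dhc36C* (-0.86, adjusted p = 0.0135), *Dhc16F* (-0.64, adjusted p = 0.0183) and *Dhc98D* (-0.80, adjusted p = 0.0376) passed, and 22.3% of all genes were called lower.

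None of the 3 Y-linked chains passed the test without the block or with it. The log2 fold change was 0.39 for *kl-5* (SE 0.38, adjusted p = 0.472 by edgeR), 0.24 for *kl-3* (SE 0.37, adjusted p = 0.656) and -0.13 for *kl-2* (SE 0.44, adjusted p = 0.848). With the block and the length trend removed, *kl-5* (0.54, adjusted p = 0.00183) and *kl-3* (0.39, adjusted p = 0.00789) rose by edgeR. In that fit 3355 of 14028 genes were called higher. Each of the 2 was called in only 1 of 20 alternatives. Without mutant replicate 1 and without the block, *kl-5* (-0.13) and *kl-3* (-0.26) were below 0 and not called. The Y-linked genes share the replicate pattern, with *kl-5* at 22335, 13802 and 13032 normalized counts in control and 34630, 16514 and 13462 in the mutant. Taken as shares of the summed level per kb of 10 axonemal heavy chains (the 6 genes, the 3 on the Y and *Dhc1*), a change that all of them share cancels. The 6 genes then held 68.9% to 73.2% of the sum in control and 59.5% to 64.2% in the mutant. The Y-linked chains together held 25.5% to 30.1% in control and 34.9% to 39.9% in the mutant. Among them *kl-3* and *kl-5* gained share without overlap between the genotypes. The share of *kl-2* overlapped, at 4.49% to 5.90% in control and 4.62% to 6.06% in the mutant. *Dhc36C* went from 25.6% to 29.3% in control to 21.3% to 22.6% in the mutant, and *Dhc98D* from 17.0% to 18.4% to 15.1% to 15.7%, without overlap. *CG3339* held 0.223% to 0.318% in control and 0.101% to 0.165% in the mutant, also without overlap. The shares of *Dhc16F*, *Dhc62B* and *Dhc93AB* overlapped between genotypes. All these shares sum to a whole, so a rise of *kl-3* and *kl-5* lowers the others, and they are given as a description.

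**Figure D3:**
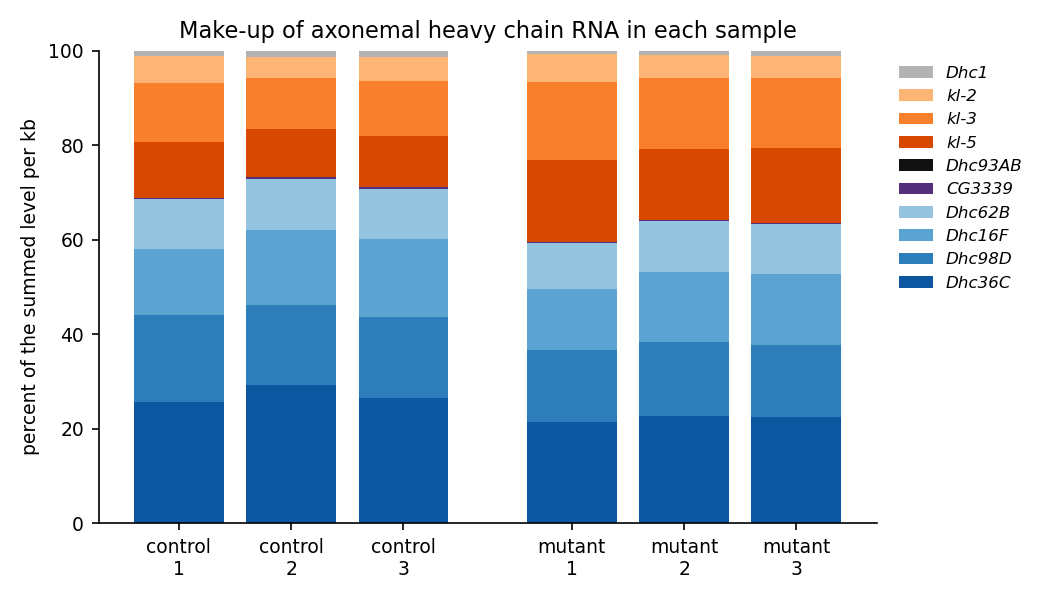
Percent of the summed level per kb of exon of 10 axonemal dynein heavy chains in each of the 3 control and 3 *modulo* mutant samples, 1 stacked bar a sample, with the 6 genes off the Y in blue, purple and black, the 3 Y-linked ones in orange and *Dhc1* in grey. The 6 genes off the Y chromosome hold 68.9% to 73.2% in control and 59.5% to 64.2% in the mutant.

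Single ratios between a scarce chain and a Y-linked one were also taken in each sample. The log2 ratio of *Dhc93AB* to *kl-5*, of the same outer arm class, was -9.69, -9.14 and -8.95 in control and -10.65, -9.82 and -9.80 in the mutant. The log2 ratio of *CG3339* to *kl-2* was -4.58, -3.68 and -3.84 in control and -5.77, -5.05 and -4.67 in the mutant. Every mutant ratio was below every control ratio. The differences were -0.83 and -1.13, each with p = 0.1 in an exact two-sided permutation test (adjusted 0.1 over the 2 ratios), which is the smallest p that 3 against 3 samples allow. This test does not use the pairing. Within same-numbered pairs the mean difference was -0.83 (SE 0.080, n = 3 pairs) and -1.13 (SE 0.163), and the mutant ratio was the lower one in 3 of 3 pairs for both. Each SE is taken from the spread of 3 pairs only. The 0.080 understates the error, since *Dhc93AB* has 14 to 27 counts and an SE of 0.26 in the fit with the block.

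Over all tested genes 32.3% passed the test without the block, 17.8% of them all being called lower. Of the 12 dynein heavy chain genes in all, 3 passed it, all of them lower in the mutant. Beside *CG3339* these were *Dhc1*, an outer arm chain, and *btv*, the heavy chain of the dynein that carries cargo inside cilia. *Dhc1* went from 1911 ± 118 to 1187 ± 180 normalized counts (log2 fold change -0.69, SE 0.12, adjusted p = 0.00633 by edgeR) and *btv* from 649 ± 72.0 to 200 ± 32.5 (-1.69, SE 0.15, adjusted p = 0.000313). *Dhc64C*, the heavy chain of cytoplasmic dynein and as long as the axonemal ones, had a log2 fold change of 0.05 (SE 0.13, adjusted p = 0.781). With the length trend removed it was 0.29, both without the block (adjusted p = 0.0240 by edgeR) and with it (adjusted p = 0.0169). In these fits 2588 and 3355 of 14028 genes were called higher. *Dhc64C* was called in only these 2 of 20 alternatives.

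**Figure D4:**
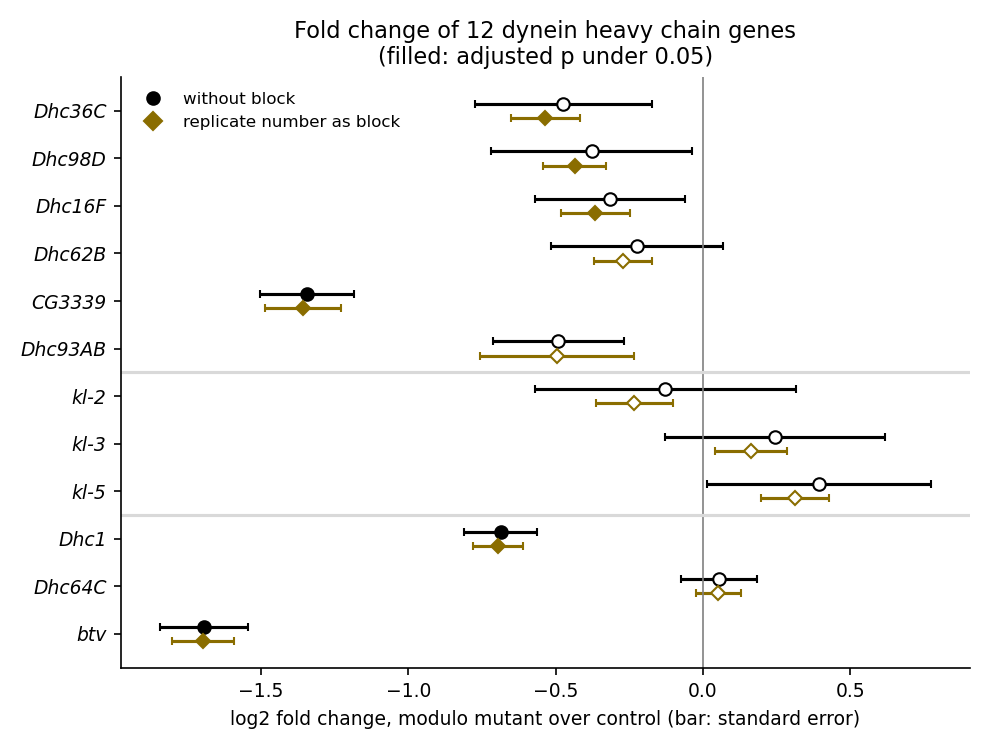
Log2 fold change (mutant over control) of the 12 dynein heavy chain genes with its standard error, without (black) and with (gold) the replicate number as a block, filled where the adjusted p is below 0.05. *btv*, *CG3339* and *Dhc1* lie lowest, and *kl-3* and *kl-5* lie above 0.

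The other parts of the arms and of the axoneme mostly did not pass the test. Their lists, together with those of cytoplasmic and transport dynein, held 48 tested genes that are not heavy chains. Of these 48, 2 were called higher (4.17%) and 5 lower (10.4%), with a median log2 fold change of 0.05. None of the 5 tested intermediate chains passed by edgeR without the block. *CG9313*, named after its value was seen, was near the threshold (0.31, adjusted p = 0.0506), and rose with the block (0.31, adjusted p = 0.0239) and by DESeq2 (adjusted p = 0.0141). Among 12 light chains *ODA-Dnal1*, a light chain of the outer arm, fell from 1287 to 604 normalized counts (log2 fold change -1.09, SE 0.10, adjusted p = 0.000364 by edgeR), and *CG16837*, of the roadblock type, rose (0.38, SE 0.11, adjusted p = 0.0374), a call kept in 13 of 20 alternatives. Of 4 genes for docking of the outer arm 2 fell. *CCDC151* went from 240 ± 16.4 to 12.1 ± 4.78 normalized counts (-4.28, SE 0.26, adjusted p = 7.6e-05), and *Ccdc114*, named after its value was seen, from 122 to 51.4 (-1.25, SE 0.20, adjusted p = 0.00412). Among 9 factors that assemble dynein arms in the cytoplasm *Dnaaf3* fell (-0.49, SE 0.09, adjusted p = 0.00561) and *Zmynd10* rose (0.37, SE 0.08, adjusted p = 0.0106), and *Dnaaf4*, named after its value was seen, fell (-0.43, adjusted p = 0.0116). None of the 8 other axonemal genes passed by edgeR, with or without the block, or by DESeq2. Of the 11 genes of cytoplasmic dynein and dynactin none passed by edgeR without the block, 2 rose with it, and 3 passed by DESeq2.

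**Figure D5:**
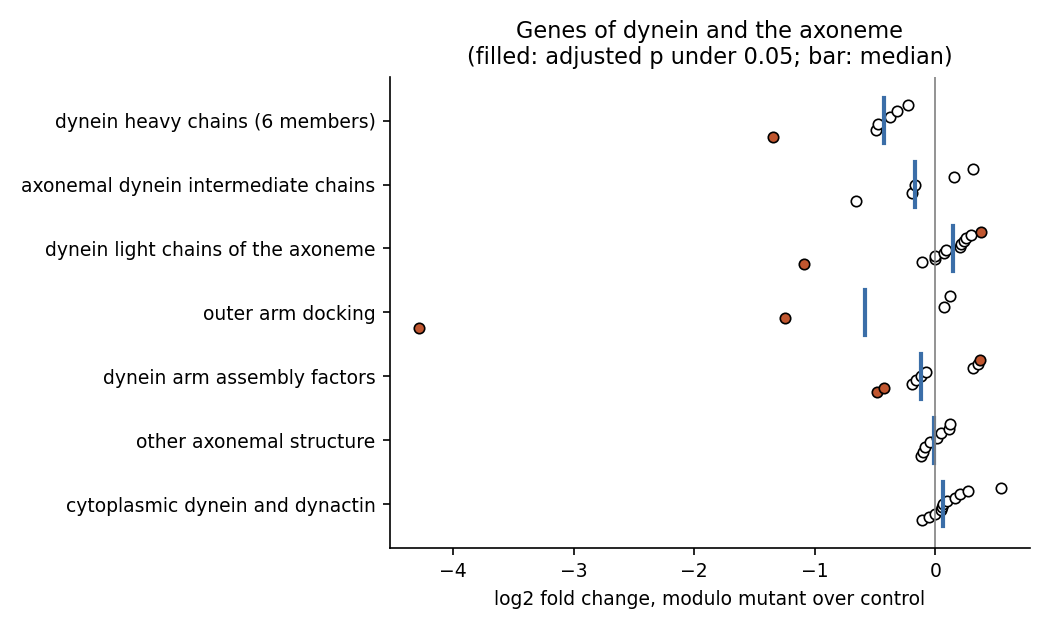
Log2 fold change (mutant over control) of each tested gene of the dynein and axoneme lists, 1 row a list, with a bar at the median and filled points for an adjusted p below 0.05. Of the 48 genes that are not heavy chains 2 are called higher and 5 lower, where 14.5% and 17.8% of all tested genes are. *CCDC151* lies farthest out at -4.28.

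Among all genes with a mean of at least 100 normalized counts, those closest to each heavy chain over the 6 samples were found by the root mean square difference of their log2 deviations from their own mean. The nearest to *Dhc16F* was *CG33287* at 0.0152, ahead of *poe* and *cmet*. *dikar* was the nearest to *Dhc36C* at 0.0552 and was also among the 3 nearest to *Dhc98D*, whose closest gene was *CG42588* at 0.0790. *ana1* was the nearest to *Dhc62B* at 0.0389 and *CR43972* to *CG3339* at 0.0351. *4E-T* was the nearest to *Dhc93AB* at 0.0288, a match that rests on few counts. No other dynein heavy chain was among the 3 nearest of any of the 6.

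The summed level of some marker lists differed between the genotypes. Counts of called markers stand beside 14.5% of all tested genes called higher and 17.8% lower, and 22.2% and 23.4% with the replicate block. The summed level of 8 hub and cyst cell genes was 170 to 174 CPM in control and 140 to 144 in the mutant. Of these genes 3 were lower and 1 higher, and 4 lower and 1 higher with the block. None of the 8 was at 0 in any sample. The summed level of 11 spermatocyte transcription genes was 450 to 507 in control and 514 to 610 in the mutant. Of these genes 3 were higher and 1 lower, and 5 higher with the block. Of 8 early germline genes 3 were higher and none lower, 6 higher with the replicate block, and their sums overlapped, from 167 to 202 and from 177 to 251. None of the 11 spermatid genes and none of the 5 chordotonal genes tested passed without the block. The part of cell composition in the levels of the heavy chains was not tested.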

How the data were processed

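Total RNA depleted of ribosomal RNA was sequenced as stranded read pairs. As deposited, the files hold estimated counts per gene and lane: the authors aligned reads with STAR 2.7.1a to BDGP6/dm6 and counted with featureCounts by strand, giving a read with several hits a fraction to each, so the counts of near-identical genes are shared. Here the 3 lanes of each replicate were summed and rounded. A gene entered the test if 3 or more samples had 10 or more counts, and edgeR 4.0.16 was used (TMM scaling, quasi-likelihood, Benjamini-Hochberg, threshold 0.05, no block) in R 4.3.3, and the script was tested on simulated data. SE is the log2 fold change divided by the square root of F. DESeq2 1.42.0 with and without ashr, other scalings and filters, single lanes, the replicate block and leaving out each replicate were tried, and removal of the exon length trend was added after seeing the data. Deviations of same-numbered samples correlated at 0.572, 0.591 and 0.170, and different-numbered ones at -0.595 to 0.0884. The pairing by number rests on these correlations, and that of number 3 is weak. It served for the alternative fit with the block and for differences within pairs, while the main test had no block. The study's legends call the replicates independent experiments, and neither they nor the labels say what a number shares. Exon lengths and positions came from the Ensembl annotation of the same assembly. No sequences were used here. The named genes are the 12 heavy chains, *mod*, the called gene with the largest rise and fall of each dynein or axoneme list, and the 3 genes nearest to each of the 6. The members and lists were chosen with earlier results of these data known.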

Additional observations from a re-analysis of the deposited data

How the results depend on the processing

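*CG3339* passed the test, lower in the mutant, under all 20 alternatives, with log2 fold changes from -1.60 to -1.13 and adjusted p from 6.78e-12 to 0.00868 (edgeR or DESeq2). No value of the 6 genes changed direction, and of 116 such values 109 kept their side of the threshold and 7 passed it where the main one did not. With the replicate block *Dhc16F* (-0.37), *Dhc36C* (-0.53) and *Dhc98D* (-0.44) passed, all lower. In that fit 3287 genes (23.4%) were called lower against 2503 (17.8%) in the main test, and 3122 were called higher against 2044. With the block and the length trend removed *Dhc36C* passed (-0.32), where 3357 genes (23.9%) were called lower and 3355 higher. With the length trend removed and no block, *Dhc36C* did not pass (-0.31, adjusted p = 0.181 by edgeR). Leaving out 1 replicate at a time gave 2611 to 5895 calls against 4547, of which 919 to 2791 were higher, and log2 fold changes of -0.64 to -0.11 for *Dhc16F*, -0.86 to -0.25 for *Dhc36C*, -0.58 to -0.01 for *Dhc62B* and -0.80 to -0.12 for *Dhc98D*. The fewest calls came without mutant replicate 2 and the most without mutant replicate 1. The cause was not tested. *Dhc93AB* could not be tested in single lanes or with a minimum of 50 counts. The 26 values of levels and ratios moved by less than the spread, but some of them could not move. For levels the alternative was the length of the longest transcript, which differs from the summed exons only in *Dhc98D*. For ratios the mean over same-numbered pairs equals the difference of the group means by arithmetic. Of 180 counts of called genes in the dynein and axoneme lists 28 moved by over 1.5 times.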
